A study of Mus musculus with 18 samples.

Results

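The 9 genes described here, Pdk4, Cpt1a, Acadl, Acadm, Acadvl, Angptl4, Plin2, Ucp2 and Cd36, serve fatty acid oxidation or are targets of the peroxisome proliferator-activated receptors (PPARs). They were chosen by gene symbol, as genes of the fuel switch that insulin lack is known for, and with earlier results of these data in view. They occupy 10 of the 19326 lines of the expression table, because Plin2 stands on 2 lines. All were measured by RNA sequencing of whole spleens from ICR mice aged 10 weeks, in 18 libraries, 3 in each of 6 groups. The group Con held the controls, and the group A10 mice given 10 mg per kg of alginate oligosaccharide (AOS), which is made from the alginate of seaweed. The group STZ was treated with streptozotocin, a toxin of the insulin-producing beta cells that models type 1 diabetes, and the group STZ-A10 with STZ and AOS. Con-FMT and A10-FMT combined STZ with a microbiota transplant, termed fecal microbiota transplantation (FMT), whose donors were controls or had been given AOS. Thus 4 of the 6 groups carried STZ. The methods of the study describe the transplanted material as content of the small intestine, pooled within each donor group. Expression is given as RPKM, that is reads normalised to gene length and to library size, so levels may be compared between genes.

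When insulin is low, fat tissue releases fatty acids and other tissues turn from glucose to fat. Fatty acids that enter a cell are ligands of the PPARs, nuclear receptors that pair with a retinoid X receptor and raise transcription of the enzymes that store, carry and oxidise fat. Pyruvate dehydrogenase kinase 4, the product of Pdk4, switches off the enzyme complex that feeds glucose carbon into the mitochondrion. Its gene is induced by PPAR ligands and by glucocorticoids and is held down by insulin. The spleen is a lymphoid and blood-filtering organ and is not a tissue in which this programme is usually described.

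Of the 9 genes, Pdk4 alone passed the adjusted threshold of 0.05 in any of the 9 comparisons made. Its transcript was at 1.71 to 2.97 RPKM in the 6 libraries without STZ and at 4.13 to 15.3 RPKM in the 6 libraries of STZ and STZ-A10, so these sets did not overlap. The mean was 3.89 times as high in STZ as in Con and 4.96 times as high in STZ-A10 as in A10. In both transplant groups, which also carried STZ, it lay at 1.45 to 5.41 RPKM. The enzymes of mitochondrial oxidation, the lipid droplet protein gene Plin2, and Ucp2 and Cd36 differed far less between groups.

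Pdk4 lies on the minus strand of chromosome 6 (GRCm38, chr6:5483351-5496309, ENSMUSG00000019577.6, protein-coding). Its promoter window is shown with those of Cpt1a, whose enzyme controls fatty acid entry into mitochondria and which changed little, and of Acot1, a classical PPAR target described below that rose in the averaged STZ effect, as Pdk4 did, and overlapped STZ in both transplant groups. Each window holds 250 bases before and 50 after the RefSeq start (GRCm38.p6), written 5′ to 3′ on the strand of the gene, with any AGGTCA, the hexamer that many nuclear receptors bind, in capitals on either strand. The Pdk4 window is chr6:5496229-5496528 (minus strand), the Cpt1a window chr19:3323051-3323350 (plus strand) and the Acot1 window chr12:84009252-84009551 (plus strand).
Pdk4: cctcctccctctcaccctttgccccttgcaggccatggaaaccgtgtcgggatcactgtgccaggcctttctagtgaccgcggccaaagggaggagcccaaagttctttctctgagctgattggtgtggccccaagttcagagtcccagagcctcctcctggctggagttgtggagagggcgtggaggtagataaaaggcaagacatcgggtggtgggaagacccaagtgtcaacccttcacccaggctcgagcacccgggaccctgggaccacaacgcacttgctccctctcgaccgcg
Cpt1a: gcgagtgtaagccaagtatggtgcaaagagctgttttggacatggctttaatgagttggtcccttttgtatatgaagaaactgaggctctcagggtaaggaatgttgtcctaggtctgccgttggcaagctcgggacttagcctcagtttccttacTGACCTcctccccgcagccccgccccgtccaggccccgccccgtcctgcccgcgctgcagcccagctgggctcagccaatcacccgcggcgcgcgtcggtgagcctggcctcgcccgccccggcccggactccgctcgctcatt
Acot1: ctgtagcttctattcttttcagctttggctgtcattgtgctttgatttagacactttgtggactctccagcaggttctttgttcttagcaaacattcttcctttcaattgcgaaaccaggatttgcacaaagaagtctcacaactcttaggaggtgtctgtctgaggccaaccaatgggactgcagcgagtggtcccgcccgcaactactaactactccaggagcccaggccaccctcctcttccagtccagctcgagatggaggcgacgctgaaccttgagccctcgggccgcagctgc

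The hexamer stood once in the Cpt1a window, on the opposite strand, starting 94 bases before the start, and in neither of the other windows. Of all the patterns searched, which follow, the Pdk4 window held 0. The Acot1 window held TGTTCT once, 171 bases before the start on the same strand, and a GC box once, 55 bases before it on the opposite strand, and the Cpt1a window also held 3 GC boxes. Among the 9 genes, 8 (all but Angptl4) had a window, and 5 of these (Acadm, Acadvl, Cd36, Cpt1a and Plin2) held the hexamer, against 16.3% of all 32851 windows of this length. The direct repeat of the hexamer with 1 base between, which PPARs bind, was in 0 of the 8 and in 0.0396% of all windows. Looser forms of the repeat, which contain the strict form, were in 0 of the 8 too. They left base 4 free in both copies (0.381% of all windows), bases 4 and 5 in the first copy and 4 in the second (0.913%), base 4 in the first and 4 and 5 in the second (0.886%), or base 4 in the first and 2 and 4 in the second (0.709%). The glucocorticoid receptor hexamer TGTTCT (19.0% of all windows), its inverted repeat with 3 bases between (0.00913%), the same with base 4 of the second copy free (0.0396%) or of both (0.0639%), and the TATA box TATAAA (13.6%) were also in 0 of the 8. The GC box GGGCGG was in 5 of the 8 and in 35.7% of all windows. These 12 patterns were searched on both strands and chosen after the expression values were known. A match is a run of letters and not a shown site, and a missing match says only that these letters are not in these windows.

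The question of the STZ comparisons was what diabetes does to the spleen, with and without AOS. Pdk4 was at 1.71, 2.88 and 2.65 RPKM in Con and at 10.11, 13.92 and 4.13 RPKM in STZ. In A10 it was at 2.67, 2.97 and 2.86 RPKM and in STZ-A10 at 14.71, 12.13 and 15.3 RPKM. Every library with STZ was above every library of its counterpart, and STZ replicate 3 was the lowest of them. STZ against Con gave a log2 fold change of log2(RPKM + 1) of 1.49 (SE 0.312, 95% interval 0.826 to 2.15), with an adjusted p of 0.0635 in limma over all 12907 genes tested. STZ-A10 against A10 gave 1.97 (SE 0.312, interval 1.30 to 2.63), with an adjusted p of 0.0322, and a p-value of rank 5 among all genes. The effect of STZ averaged over animals with and without AOS was 1.73 (SE 0.221, adjusted p 0.00155 by limma), with rank 8 by p.

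Because the genes were chosen with the STZ comparisons known, these p-values give the place of each gene in the fit over all genes and are no independent test of the choice. The counts stand against few calls over the whole table. In STZ against Con, 0 of the 9 genes and 0.163% of all genes passed the threshold. In STZ-A10 against A10, 1 of the 9 and 0.0542% of all genes passed, and in the averaged effect 1 of the 9 and 3.3% of all genes. The averaged effect of Pdk4 passed under all 21 alternative settings, with limma adjusted p from 9.26e-08 to 0.00771. The call in STZ-A10 against A10 was less secure. It was lost without each of the 6 libraries in turn, with adjusted p of 0.195, 0.0777 and 0.177 without A10 replicates 1, 2 and 3 and of 0.0907, 0.0713 and 0.153 without STZ-A10 replicates 1, 2 and 3, while the fold change stayed between 1.91 and 2.06. Of the 6 fits of STZ against Con that left out a library, 1 passed. It lacked STZ replicate 3, the lowest Pdk4 library of its group (log2 fold change 1.93, adjusted p 0.0039 by limma). The others gave adjusted p up to 0.307 and fold changes down to 1.16.

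**Figure D1:**
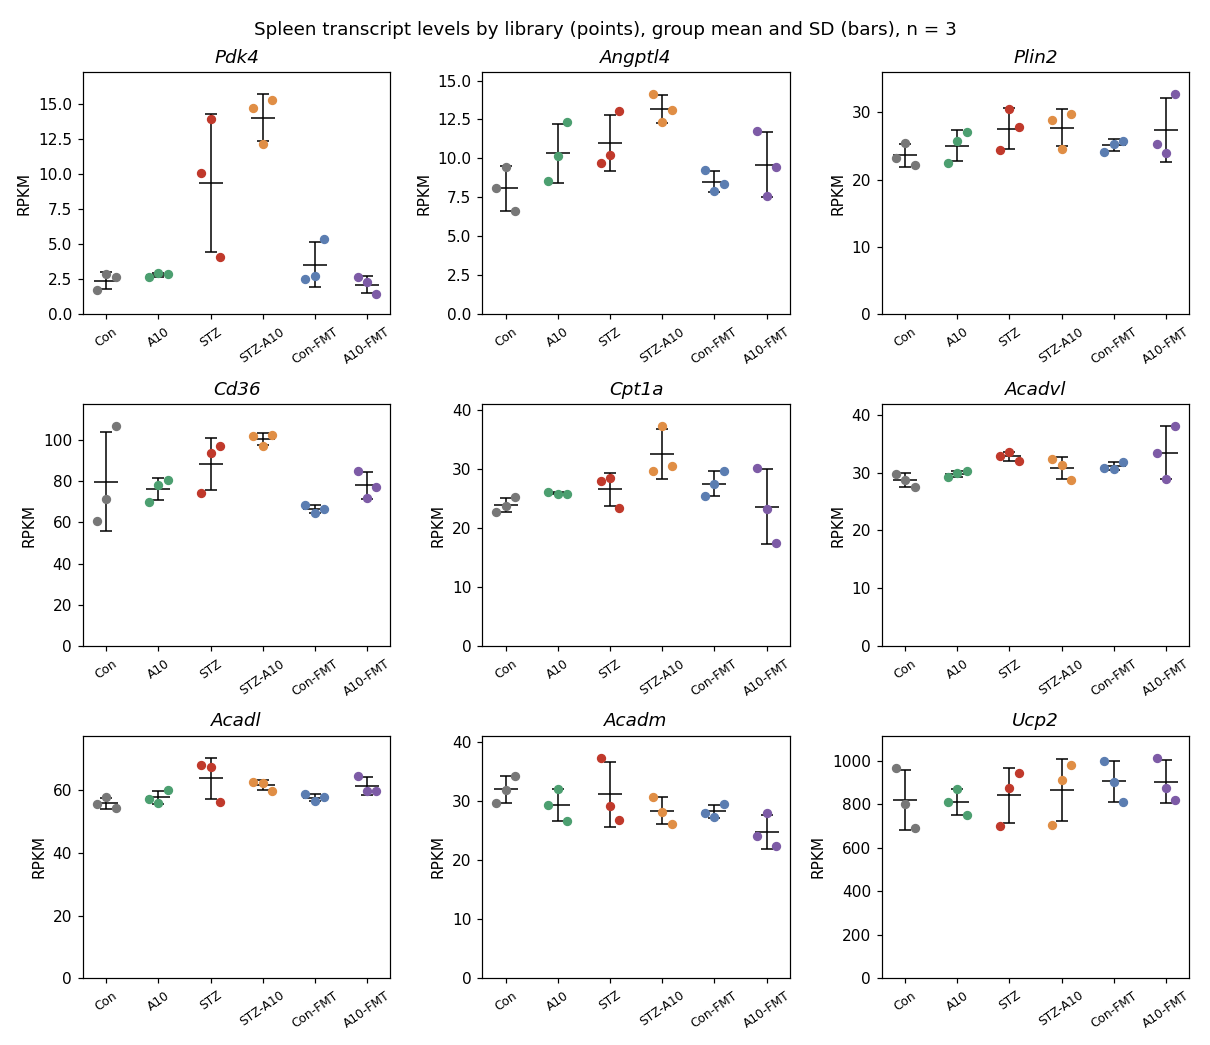
RPKM of each of the 9 genes in each library (points) of the 6 groups, with the group mean and SD as bars (n = 3), on linear axes that start at 0. Pdk4 in STZ and STZ-A10 lies between 4.13 and 15.3 RPKM, above the 6 libraries without STZ, while the other 8 genes cover largely common ranges in all groups.

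The transplants asked whether a microbiota from other animals alters the state of the STZ spleen. Pdk4 was at 2.52, 2.75 and 5.41 RPKM in Con-FMT and at 2.65, 2.31 and 1.45 RPKM in A10-FMT. The libraries of A10-FMT were all below those of STZ, and replicate 3 of Con-FMT was above replicate 3 of STZ. Against STZ, the log2 fold change was -1.11 (SE 0.312, interval -1.77 to -0.446) in Con-FMT, with an adjusted p of 0.798 in limma. In A10-FMT it was -1.62 (SE 0.312, interval -2.28 to -0.951), with an adjusted p of 0.08. None of the 9 genes passed in either comparison, in which 0.00775% of all genes did, and 2 of the 9 in each had an unadjusted p under 0.05, as did 676 and 2216 of all genes. Without STZ replicate 3, the library with the lowest Pdk4 of its group, A10-FMT against STZ passed (-2.06, adjusted p 0.00344 by limma). That was 1 of 6 fits that left out a library, and the others gave adjusted p up to 0.402. The median of all genes was itself lower by 0.149 in A10-FMT than in STZ, and centring the libraries on their medians gave -1.44 for Pdk4. The comparisons with Con and with both transplant groups share the STZ libraries.

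Group means of Pdk4 ran from STZ-A10 (14.1 RPKM ± 1.69, SD) through STZ (9.39 ± 4.94), Con-FMT (3.56 ± 1.61), A10 (2.83 ± 0.152) and Con (2.41 ± 0.62) to A10-FMT (2.14 ± 0.619). No group in this order was clear of the next, since the libraries of each neighbouring pair overlapped. STZ-A10 differed from STZ by 0.66 (SE 0.312, interval -0.00284 to 1.33, adjusted p 0.996 by limma), and 0.00775% of all genes passed there. Of the fits that leave out a library, the one lacking STZ replicate 3 gave the smallest difference (0.22) and the one lacking STZ replicate 2 the largest (0.99). The effect of STZ with AOS exceeded that without by 0.48 (SE 0.441, adjusted p 1.00 by limma), an interaction for which 0% of the genes passed at the adjusted threshold and 369 had an unadjusted p under 0.05. It was 0.0348 in the fit lacking STZ replicate 3 and 0.80 in the one lacking STZ replicate 2. A10 differed from Con by 0.18 and A10-FMT from Con-FMT by -0.51, with adjusted p of 0.989 and 0.286 in limma. In these comparisons 0 of the 9 genes passed, beside 0.00775% and 0% of all genes, and 677 and 3040 of all genes had an unadjusted p under 0.05.

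Angptl4 encodes a secreted inhibitor of lipoprotein lipase and is a PPAR target of fat, liver and muscle. It was at 8.13, 9.47 and 6.63 RPKM in Con and at 9.69, 10.21 and 13.06 RPKM in STZ. In A10 it was at 8.53, 10.13 and 12.32 RPKM and in STZ-A10 at 14.14, 12.32 and 13.11 RPKM. STZ was clear of Con, whereas A10 and STZ-A10 met at 12.32 RPKM. The averaged effect was 0.37 (SE 0.116, interval 0.122 to 0.617), with an adjusted p of 0.0942 in limma. With 9.25, 7.91 and 8.36 RPKM, Con-FMT was below STZ in every library, by 0.33 on the log2 scale (adjusted p 0.95 by limma). A10-FMT had 11.79, 7.61 and 9.43 RPKM and overlapped STZ.

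Cd36, a fatty acid translocase of the cell surface that macrophages, capillaries and platelets carry, was among the more abundant of the 9 genes. It was at 60.8, 71.48 and 106.76 RPKM in Con and at 74.03, 93.61 and 97.18 RPKM in STZ. In A10 it was at 70.06, 78.13 and 80.28 RPKM and in STZ-A10 at 101.67, 96.86 and 102.2 RPKM. The control group alone thus spanned the whole range of the gene, and STZ-A10 was clear of A10. The averaged effect was 0.29 (SE 0.112, adjusted p 0.181 by limma). Of 12 fits that left out a library, 1 passed, the one without Con replicate 3, the highest library of all (0.40, adjusted p 0.0224). The others gave adjusted p up to 0.371. Con-FMT, at 68.17, 64.5 and 66.52 RPKM, was below every STZ library, and the difference on the log2 scale was -0.40 (SE 0.158) with a limma adjusted p of 0.918. A10-FMT, at 84.85, 71.96 and 76.92 RPKM, overlapped STZ. Of 13 red pulp macrophage markers, 2 rose and 0 fell in the averaged effect, beside 1.37% of all genes that rose and 1.93% that fell. Their sums were 728 to 946 RPKM in Con and 1019 to 1070 RPKM in STZ. With AOS the sums overlapped, at 848 to 970 RPKM in A10 and 935 to 1469 RPKM in STZ-A10. Of 13 platelet and megakaryocyte markers, 6 fell and 0 rose, with a median of -0.89 and with sums of 899 to 2248 RPKM in Con and 268 to 785 RPKM in STZ. Those sums were 787 to 1207 RPKM in A10 and 512 to 816 RPKM in STZ-A10. Of 10 sinusoid and vessel endothelial markers, 0 rose and 0 fell. Their sums overlapped, at 168 to 257 RPKM in Con and 200 to 273 RPKM in STZ, and at 215 to 245 RPKM in A10 and 225 to 362 RPKM in STZ-A10. The part of any of these cell types in the level of Cd36 was not tested.

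Plin2, which encodes the protein coat of lipid droplets in most cells, stood on 2 lines whose identity the table does not give. The higher line ran from 22.18 to 32.71 RPKM over the 18 libraries and is the one called Plin2 here. The lower ran from 0.11 to 1.37 RPKM and reached 1 RPKM in 3 libraries. On the higher line the group means lay between 23.6 (Con) and 27.7 RPKM (STZ-A10), and all neighbours in their order overlapped. The averaged STZ effect was 0.18 (SE 0.0874, adjusted p 0.314 by limma) on the higher line and -0.12 (SE 0.161, adjusted p 0.769) on the lower.

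Cpt1a encodes the liver-type carnitine palmitoyltransferase of the outer mitochondrial membrane, the gate through which long-chain fatty acids enter oxidation. It was at 22.79, 23.73 and 25.17 RPKM in Con and at 27.87, 28.4 and 23.35 RPKM in STZ. In A10 it was at 26.09, 25.82 and 25.73 RPKM and in STZ-A10 at 29.63, 37.29 and 30.4 RPKM. The groups with AOS did not overlap and those without did. The averaged effect was 0.22 (SE 0.106, interval -0.00177 to 0.451), with an adjusted p of 0.28 in limma. Con-FMT (25.46, 27.4 and 29.68 RPKM) and A10-FMT (30.12, 23.14 and 17.44 RPKM) both overlapped STZ, and A10-FMT held the lowest library of the 18.

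The acyl-CoA dehydrogenases Acadvl, Acadl and Acadm carry out the first oxidation step on very long, long and medium chains. Acadvl was at 29.83, 28.8 and 27.54 RPKM in Con and at 32.93, 33.57 and 31.93 RPKM in STZ, with no overlap, and at 29.27 to 30.21 RPKM in A10 and 28.64 to 32.41 RPKM in STZ-A10, with overlap. Its averaged effect was 0.11 (SE 0.0654, adjusted p 0.387 by limma). Acadl was at 55.51, 57.81 and 54.42 RPKM in Con and at 68.08, 67.39 and 56.39 RPKM in STZ, an overlap made by STZ replicate 3. Its averaged effect was 0.14 (SE 0.0588, adjusted p 0.216 by limma). Acadm was the only gene of the 9 with a lower mean in both STZ groups, from 32.0 to 31.2 RPKM and from 29.4 to 28.4 RPKM, and its averaged effect was -0.05 (SE 0.0871, interval -0.232 to 0.138, adjusted p 0.843 by limma). Across the 18 libraries the highest value exceeded the lowest by 1.38-fold in Acadvl, 1.25-fold in Acadl and 1.67-fold in Acadm, beside 10.6-fold in Pdk4. In Con-FMT all Acadvl libraries (30.73, 30.65 and 31.88 RPKM) were below those of STZ, by 0.08 on the log2 scale (adjusted p 0.979 by limma).

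Ucp2, the uncoupling protein of the inner mitochondrial membrane in immune cells, was the most abundant of the 9 genes, at 691 to 1014 RPKM, with a mean above that of 99.2% of the genes tested. Its group means lay between 811 (A10) and 904.7 RPKM (Con-FMT), every pair of neighbours overlapped, and the averaged STZ effect was 0.06 (SE 0.113, interval -0.18 to 0.301, adjusted p 0.845 by limma).

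**Figure D2:**
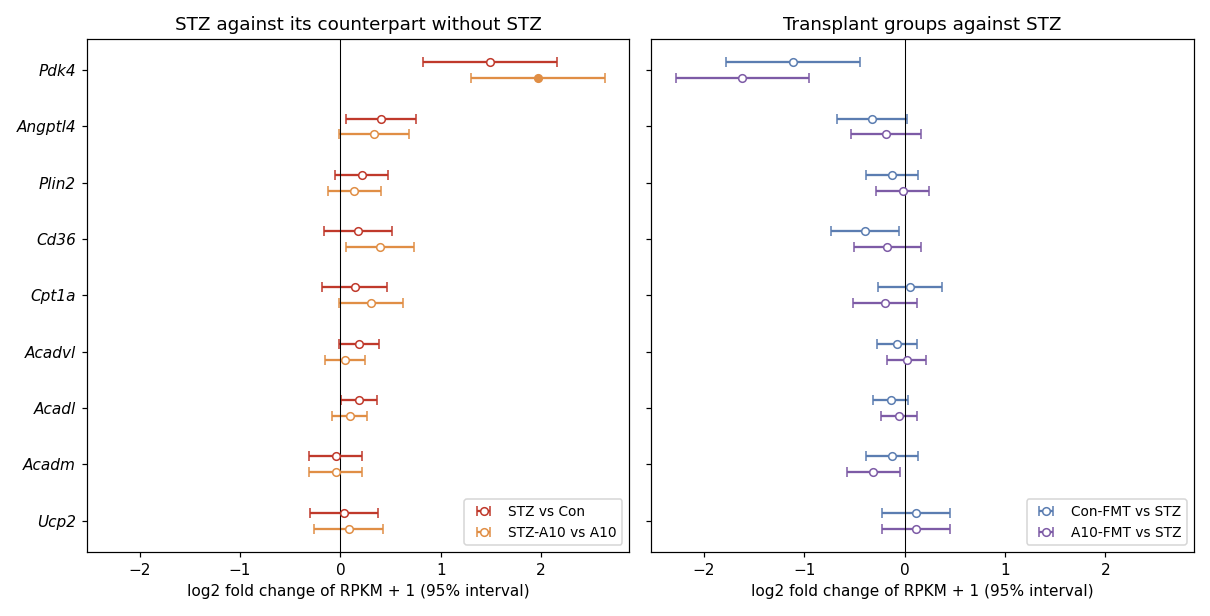
Log2 fold change of RPKM + 1 for each gene with its 95% interval from limma, for STZ against Con and STZ-A10 against A10 (left) and for both transplant groups against STZ (right), filled where the adjusted p is under 0.05. Pdk4 stands at 1.49 and 1.97 on the left and at -1.11 and -1.62 on the right, with the only filled point at 1.97, while the other genes lie between -0.40 and 0.40.

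Counted over the list, 8 of the 9 genes had a positive fold change in STZ against Con, with a median of 0.19 beside -0.01 over all genes tested. In STZ-A10 against A10 it was again 8 of 9, with a median of 0.14 beside -0.03. The libraries of 3 genes (Pdk4, Angptl4 and Acadvl) did not overlap and were higher in STZ than in Con, where 5.77% of all genes did so. In STZ-A10 against A10 these were 3 (Pdk4, Cd36 and Cpt1a), beside 7.69% of all genes. Pdk4 alone was among them in both. In Con-FMT, 3 genes (Cd36, Angptl4 and Acadvl) were below STZ without overlap, beside 6.22% of all genes, and in A10-FMT 1 (Pdk4), beside 12.1%. The median fold change of the list against STZ was -0.13 in Con-FMT (0.00 over all genes) and -0.17 in A10-FMT (-0.15 over all genes). In A10-FMT the directions of Plin2 and Acadl turned when libraries were centred on their medians, to 0.15 and 0.12.

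The pathway around these genes was read from lists written from general knowledge, here for the averaged effect of STZ. The lists were chosen with earlier results of these data known, so their counts are no independent support. Of 16 further genes of mitochondrial beta-oxidation, 1 rose and 0 fell, beside 1.37% of all genes that rose, with a list median of 0.04 beside -0.02 over all genes. A single gene of 16 is near that share and is no result about the list. The one was Acaa2, the thiolase that closes each round of oxidation, at 32.0, 30.47 and 30.64 RPKM in Con, 47.64, 48.74 and 34.59 RPKM in STZ, 30.92, 31.27 and 28.1 RPKM in A10 and 44.62, 43.0 and 35.11 RPKM in STZ-A10. Both STZ groups were clear of their counterparts, with a log2 fold change of 0.44 and an adjusted p of 0.0192 in limma. That call was lost without Con replicate 2 (adjusted p 0.0527), A10 replicate 3 (0.0569) or STZ replicate 2 (0.0649). Of the carnitine shuttle, Slc25a20 (0.27) and Cpt2 (-0.15) did not pass, with adjusted p of 0.153 and 0.358. Of 12 peroxisomal genes 0 passed, 9 had a negative fold change (11 in STZ against Con), and the median was -0.18. Of these 12, 3 had an unadjusted p under 0.05 in limma, beside 18.2% of all genes. Acaa1b (-0.55) and Decr2 (-0.44) lay farthest from 0.

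Of 16 other PPAR targets, 7 were tested, and 2 rose and 3 fell, beside the 1.37% and 1.93% of all genes, with a median of -0.40. The 9 left out, among them Ucp3, Plin5, Fgf21, Cyp4a10 and Cyp4a14, did not reach 1 RPKM in 3 libraries. Acot1, a cytosolic thioesterase that frees fatty acids from CoA, was at 1.39, 1.77 and 1.81 RPKM in Con and 5.67, 4.08 and 4.27 RPKM in STZ. It was at 1.38, 1.82 and 1.75 RPKM in A10 and 4.53, 6.68 and 5.72 RPKM in STZ-A10, so neither STZ group came near its counterpart. The averaged effect was 1.20 (SE 0.173, adjusted p 0.00398 by limma) and passed under all 21 alternatives. In the transplant groups it was at 2.29, 2.02 and 4.91 RPKM (Con-FMT) and 4.93, 2.24 and 4.09 RPKM (A10-FMT), and both overlapped STZ.

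Hilpda, a lipid droplet protein induced by hypoxia and by PPARs, rose by 0.55 (adjusted p 0.0369 by limma), a call kept without STZ replicate 3 and lost without any other single library (adjusted p up to 0.0965).

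The 3 that fell were Cidec (-1.66), Fabp1 (-1.63) and Fabp4 (-1.58), with adjusted p of 0.0471, 0.0481 and 0.0405 in limma. Fabp4 and Cidec are carriers and droplet proteins of fat cells, and Fabp1 is the fatty acid carrier of liver and gut. The calls of Cidec and Fabp4 held without Con replicate 1, A10 replicate 1 or STZ-A10 replicate 1 and that of Fabp1 without Con replicate 1 or STZ replicate 3, and they were lost without any other single library (adjusted p up to 0.12, 0.108 and 0.124). Beside them, 8 of the 10 adipose markers tested fell, where 1.93% of all genes did, and the summed RPKM of the 11 on that list ran from 48.5 to 277 in Con, against 12.8 to 32.9 in STZ. With AOS it ran from 149.5 to 457.5 in A10, against 35.3 to 111.5 in STZ-A10. Of 16 liver markers 7 fell, against the same 1.93%, with sums of 122 to 449 RPKM in Con and 98.3 to 131 RPKM in STZ. In STZ and in A10 most of the mean sum was Serpina1b, with 104.6 of 112.4 RPKM in STZ and 142.2 of 203.3 RPKM in A10. Alb had means of 0.907 RPKM in STZ and 14.3 RPKM in A10. Cidec and Fabp4 are on the adipose list too, and 2 genes of that list (Adig and Plin1) reached the filter of 1 RPKM in 3 libraries only through Con and A10, in which they are higher, which leaves 7 of 8. The part of these tissues in the changes was not tested, and in whole spleen fewer cells of a type and less RNA per cell cannot be told apart.

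Of the genes that store fat in droplets, Plin1 (-1.15) and Dgat2 (-0.73) fell, with adjusted p of 0.0343 and 0.0286 in limma. Of the 10 tested 0 rose, with a median of -0.15, beside 1.37% of all genes that rose and 1.93% that fell. Plin1 and Plin4 reached the filter only through Con and A10, which leaves 1 of 8. A single gene of 8 is no result about the list. Plin1, also on the adipose list, was listed at 0 to 0.15 RPKM in STZ and kept its call without Con replicate 1, A10 replicate 1, STZ replicate 3 or STZ-A10 replicate 1 and lost it without any other single library (adjusted p up to 0.0911). Dgat2 was lost without Con replicate 2, A10 replicate 2, STZ replicate 1 or 2, or STZ-A10 replicate 2 or 3 (up to 0.0802). Of 12 genes of fatty acid uptake and activation, Acot7, another acyl-CoA thioesterase, fell (-0.63, adjusted p 0.0192 by limma), beside 1.93% of all genes. A single gene of 12 is no result about the list. The call of Acot7 was lost without Con replicate 2, A10 replicate 3, STZ replicate 2 or STZ-A10 replicate 3 (up to 0.0605).

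The receptors themselves did not pass. Pparg was at 3.38 to 5.55 RPKM and Ppard at 7.33 to 10.37 RPKM over Con, A10, STZ and STZ-A10, with averaged effects of -0.02 and 0.01. Ppara was at 0.04 to 0.25 RPKM and the coactivator gene Ppargc1a at 0.07 to 0.33 RPKM in the same libraries, and neither was tested. Of the 13 tested receptors, partners and coregulators 0 passed in either direction, beside 3.3% of all genes. Unadjusted p was under 0.05 in limma for 0 of them and for 18.2% of all genes. In A10-FMT against STZ 0 of the 13 passed and 12 had a negative fold change, with a median of -0.27 beside -0.15 over all genes. Unadjusted p was under 0.05 in limma there for 7 of the 13 and for 17.2% of all genes. In Con-FMT against STZ 5 of the 13 had a negative fold change. Unadjusted p was under 0.05 in limma there for 0 of the 13 and for 5.24% of all genes. The kinases that share the role of Pdk4 did not pass either, with averaged effects of 0.20 for Pdk1, 0.04 for Pdk2 and -0.11 for Pdk3. Of 13 genes of the pyruvate dehydrogenase complex and its regulators 0 passed, and 0 had an unadjusted p under 0.05. Those counts stand beside the same 3.3% and 18.2% of all genes. Around malonyl-CoA, the inhibitor of Cpt1a, 0 of 6 genes passed. Of these, 1 had an unadjusted p under 0.05 by limma, beside 18.2% of all genes.

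**Figure D3:**
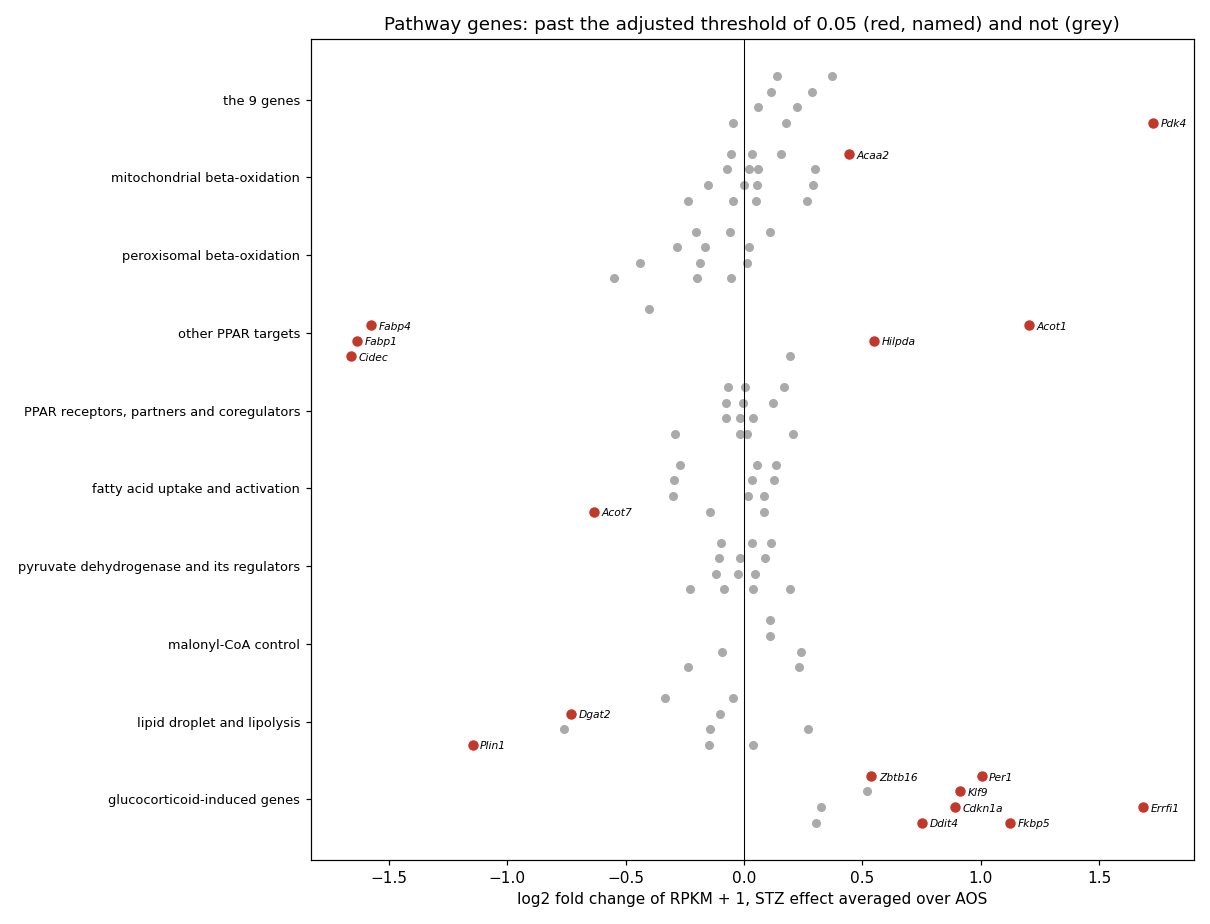
Averaged STZ effect as log2 fold change of RPKM + 1 (horizontal axis) for each tested gene (points) of 10 lists, spread vertically within a list for legibility only. Red points, with names, have a limma adjusted p under 0.05, and Pdk4 at 1.73 lies farthest to the right, near Errfi1 at 1.68.

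Since glucocorticoids also induce Pdk4, a list of 10 genes known to respond to them was set beside it. The list was chosen with earlier results of these data known, so its counts are no independent support. Of the 10 genes 7 rose in the averaged effect and 0 fell, where 1.37% of all genes rose, and the median of the list was 0.82. Zbtb16, at 0.36 to 0.57 RPKM in Con and A10, reached the filter only through STZ and STZ-A10, where it is higher, and without it 6 of 9 rose, with a median of 0.89. Errfi1 (1.68), Fkbp5 (1.12), Per1 (1.00), Klf9 (0.91) and Cdkn1a (0.89) passed under all 21 alternatives. Ddit4 (0.75, adjusted p 0.042 by limma) passed under 8 of 21 and without 2 of 12 libraries, Con replicate 3 and STZ replicate 3 (otherwise up to 0.118). Zbtb16 (0.54, adjusted p 0.0338) passed under 10 of the 17 alternatives that kept it, and without 4 of 9 libraries. Fkbp5, a chaperone that damps the glucocorticoid receptor, was at 8.82, 9.93 and 9.56 RPKM in Con, 23.73, 31.9 and 12.78 RPKM in STZ, 11.85, 10.64 and 11.57 RPKM in A10 and 39.8, 18.25 and 24.76 RPKM in STZ-A10. Both groups with STZ were clear of their counterparts. STZ replicate 3, which had the lowest Pdk4 of its group, was also the lowest in 5 of the 7 genes (Fkbp5, Per1, Klf9, Ddit4 and Zbtb16), but the highest in Errfi1 (61.7 RPKM, against 19.66 and 27.19 RPKM) and the middle one in Cdkn1a. In the transplant groups Fkbp5 had means of 12.0 RPKM ± 2.01 (Con-FMT) and 10.6 ± 1.42 (A10-FMT; SD, n = 3), and Con-FMT overlapped STZ. The summed RPKM of the list was 120 to 251 in Con, against 282 to 323 in STZ, and 177 to 181 in A10, against 263 to 344 in STZ-A10. In the transplant groups it was 191 to 264 (Con-FMT) and 150 to 210 (A10-FMT). The part of glucocorticoids in the rise of Pdk4 was not tested, and no hormone level was analysed here.

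Among all genes tested, the 3 whose log2 values followed Pdk4 most closely over the 18 libraries were Cntfr (Pearson's r 0.95), Tbx2 (0.944) and Klf9 (0.944). For Cpt1a these were Itgae (0.872), Mob3c (0.834) and Cdh17 (0.831), and for Ucp2 the first was Hba-a2 (0.887), an alpha globin gene of red cells. These correlations describe libraries that share groups, so they carry no p. Whether Ucp2 follows the globin share of the library was not tested.

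The libraries also differed in globin share, genes detected and markers of other cells and tissues, in part along the groups. Between 10.4% and 42.7% of a library's summed RPKM came from globin, and 11533 to 12895 genes reached 1 RPKM. The sums ran from 673244 to 884571 RPKM. The highest globin share, the fewest genes and the highest sum were all those of A10-FMT replicate 3. That library also held the lowest Pdk4 (1.45 RPKM), Cpt1a and Acadm and the highest Acadvl and Plin2 of all libraries. In A10-FMT replicates 1 and 2 Pdk4 was at 2.65 and 2.31 RPKM. What part the globin share had in these values was not tested. Markers of spleen were present in every library, with sums of 678 to 1469 RPKM over 13 red pulp macrophage genes and 583 to 2676 RPKM over 8 B cell genes. Neutrophil markers had a negative fold change in 11 of 11 genes in the averaged effect, with a median of -1.36 and 0 past the threshold. Of these, 10 had an unadjusted p under 0.05 in limma, beside 18.2% of all genes. Con replicate 1 stood apart with a sum of 15960 RPKM, beside 421 to 4357 RPKM in the other libraries. Markers of exocrine pancreas, an organ that lies against the spleen, summed to 24.4 to 1649 RPKM in Con, against 1052 to 4547 in STZ, and to 44.9 to 644 in A10, against 5049 to 8097 in STZ-A10, and 3 of 12 rose in the averaged effect, where 1.37% of all genes did. The sums were 1576 to 2598 RPKM in Con-FMT and 155 to 18440 RPKM in A10-FMT. Their part in the levels of the 9 genes was not tested.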

How the data were processed

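RNA of 18 spleen samples was sequenced after poly(A) enrichment. Whether each sample came from 1 mouse or from a pool is not stated. The authors deposited 1 table of RPKM per gene with 2 decimals. Per the submitters' processing notes the build was mm10 and Bowtie 0.12.2 was used, while the methods of the study name SOAPaligner for the alignment, so the aligner of these values is uncertain. The table holds no read counts, so depth per library is unknown and no counting interval or floor is given. Values near 0 rest on few reads.

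Samples were grouped by their treatment labels, and 0 columns lacked a sample. Of 19326 lines, 26 carry dates as names, of which 4 lines with repeated dates were left out. Both Plin2 lines were kept. Of the remaining symbols, 97.1% were found in the name table. Gene positions come from GENCODE M21 (GRCm38) by symbol.

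Log2(RPKM + 1) of the 12907 genes with at least 1 RPKM in 3 libraries was fitted with limma 3.58.1 (trend) in R 4.3.3, with a coefficient for each of 6 groups. P-values are two-sided, with Benjamini-Hochberg adjustment over all genes and a threshold of 0.05. Fold changes on this scale understate those of low genes. The labels number 3 samples a group and say nothing of separate cultures or litters, so p-values measure the spread between these samples. The fit was checked on simulated data with random deviations drawn independently for each gene and library. The check thus does not cover deviations that many genes share within a library. The members and lists were chosen with earlier results of these data known, and neither the counts nor the directions of members or list genes are independent support. All 9 genes are named. Of the other lists, 1 gene is not reported here and is left out of their counts. Other lists give the up to 3 genes with the largest change among those past the threshold, or else up to 2 with the largest change. Some further genes of the lists (the receptors, Ppargc1a, Pdk1 to Pdk3, Slc25a20, Cpt2, Klf9, Cdkn1a, Ddit4, Zbtb16, Plin4, Adig, Serpina1b and Alb) were named for their role or after their values were seen. Alternatives were quantile normalization, median centring, no filter, 1 RPKM in every library, a pseudocount of 0.1, no trend, only the groups compared, array weights, a block for the replicate number and leaving out each library. For the genes of the other lists they were chosen after seeing the data.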

Additional observations from a re-analysis of the deposited data

How the results depend on the processing

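Of 867 alternative values of the 9 genes, 798 kept their direction and side of the threshold, 30 passed anew, 9 no longer passed and 30 changed sign, of which 0 had an adjusted p under 0.05. The cause was not tested. Array weights, whose estimation stopped before convergence and which called 7553 of all genes in the averaged effect beside 426 in the reported fit, gave 7 of the 10 lines in STZ against Con, 3 in STZ-A10 against A10, 9 in the averaged effect, 2 in A10 against Con, 3 in STZ-A10 against STZ, 5 in each transplant group against STZ and 8 in A10-FMT against Con-FMT. They turned Pdk4 in A10 against Con (-0.0286), Cpt1a (-0.0343) and the lower Plin2 line (-0.0795) in Con-FMT against STZ, and Acadvl (-0.00306), Cpt1a (0.11) and Angptl4 (0.16) in A10-FMT against STZ. In STZ-A10 against A10, 0 of the 9 genes passed with no filter, with a pseudocount of 0.1, or with the replicate block (Pdk4 adjusted p 0.0659 by limma).

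Same-numbered samples of different groups had deviations correlated at -0.385 to 0.571, with 14 of 45 pairs over 0.1. Between STZ and STZ-A10 the same-numbered pairs stood at 0.571, 0.0439 and 0.429 and the differently numbered ones at -0.584 to 0.302. Whether the numbers pair the samples was not tested. The block left 338 calls over all genes in the averaged effect and 3 in STZ against Con, beside 426 and 21 without it.

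Leaving out a library gave 0 to 1 members in STZ against Con, 0 in STZ-A10 against A10, 1 to 2 in the averaged effect and 0 to 1 in A10-FMT against STZ. The gain was by Pdk4 without STZ replicate 3 and, in the averaged effect, by Cd36 without Con replicate 3. Signs turned for small effects: Acadm ran from -0.18 to 0.0493 in STZ against Con, from -0.11 to 0.0176 in STZ-A10 against A10, from -0.11 to 0.0014 averaged and from -0.22 to 0.0104 in Con-FMT against STZ. Ucp2 ran from -0.0758 to 0.17 in STZ against Con, -0.0142 to 0.22 in STZ-A10 against A10, -0.0146 to 0.20 in Con-FMT against STZ and -0.0167 to 0.20 in A10-FMT against STZ. The lower Plin2 line ran from -0.17 to 0.0837 in STZ-A10 against A10, Cpt1a from -0.0337 to 0.11 in Con-FMT against STZ, and in A10-FMT against STZ Acadvl from -0.0764 to 0.12 and Plin2 from -0.15 to 0.0653. Quantile normalization turned Acadm (0.00312) and the lower Plin2 line (0.0375) in STZ-A10 against A10 and Plin2 (0.057) in A10-FMT against STZ. Median centring turned Plin2 (0.15) and Acadl (0.12) there.

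Over all genes, calls without a library ran from 122 to 574 in the averaged effect, 0 to 164 in STZ against Con and 1 to 6 in STZ-A10 against A10, and under the settings other than array weights from 238 to 689, 0 to 47 and 3 to 61. Of 330 values of the other pathway genes past the threshold, 240 kept their call and direction and 90 lost the call. The other PPAR targets past the threshold, 5 in the reported fit, were 1 to 4 without a library and 1 with no filter.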
